A study of Mus musculus with 8 samples.

Results

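The small proline-rich (Sprr) genes encode short precursors of the cornified envelope, the cross-linked protein shell that replaces the plasma membrane of keratinocytes in the outermost epidermis. Their proteins carry glutamine- and lysine-rich ends, which transglutaminases join to other envelope proteins such as loricrin, and a proline-rich middle made of short repeats. The genes lie side by side in the epidermal differentiation complex, and in skin they are known both as late differentiation genes and as genes induced by wounding, ultraviolet light and inflammation.

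Sprr genes were followed in back skin of E18.5 mouse embryos with an epidermis-specific deletion of the corneodesmosin gene (KO, KRT14-Cre(tg/0)/Cdsnfl/fl, 4 embryos) and in control embryos (WT, KRT14-Cre(tg/0)/Cdsnwt/wt, 4 embryos), all with C57B/6J given as the genetic background. Both groups carried the same Cre transgene, driven by the keratin 14 promoter, which is active in basal keratinocytes and in the hair follicles that share their origin. Every skin was stripped with a 22 mm adhesive disk at the same set pressure. It was then kept for 4 h at 37 °C on Dermalife medium and extracted whole, dermis included. WT skin is thus stripped control skin and not resting skin. Storage of up to 4 weeks was given for all samples. The KO is lethal at birth, embryos were delivered by caesarean section, and the labels give neither litter nor sex, so that the spread given is that between these embryos. Each embryo gave 1 array (Affymetrix Gene Mouse 2.0 ST), and values are log2 intensities as deposited, where a difference of 1 is a doubling of signal; the levels of different genes cannot be compared on this scale.

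The Sprr genes described are the 7 whose symbol starts with Sprr in the authors' deposited table, namely Sprr1a, Sprr1b, Sprr2e, Sprr2g, Sprr2i, Sprr2j-ps and Sprr4, of 5080 genes named there. Each had 1 probe set, of 14 to 23 probes, and all 7 matched RefSeq by accession. That table lists the 5460 of 33793 probe sets that passed both limits, 0.05 for the adjusted p and 0.5 for the size of the log2 change between KO and WT, so the KO-WT contrast chose these genes and is described below without a test. RefSeq (GRCm38.p6) holds 17 Sprr genes and pseudogenes. The other 10, among them Sprr2a1, Sprr2d, Sprr2f, Sprr2h and Sprr3, had no named probe set and were not analysed here, so that nothing can be said of the family as a whole. Nearest to the limit on the adjusted p were Sprr4 (0.0311) and Sprr2e (0.0307) in the authors' deposited table, and Sprr4 was also nearest to the limit on the change.

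The targeted gene, Cdsn, fell by 3.46 ± 0.20 on the log2 scale (SE; adjusted p = 0.000125 by limma), from a lowest WT value of 11.69 to a highest KO value of 8.91. Over the whole array 21.3% of probe sets changed (limma, adjusted p under 0.05), 15.2% higher and 6.08% lower in KO skin. With every array centred on its median, 17.9% changed, 8.77% higher and 9.10% lower, and the median difference moved from 0.09 to −0.02. The authors' criteria were met by 16.2% of probe sets. On the first principal component KO replicate 3 had the score closest to WT (−25.4, the other KO arrays −46.0 to −40.1, the WT arrays 34.8 to 43.7), and WT replicate 1 was extreme on the second (−51.3). The RNA of loricrin (Lor), a marker of granular keratinocytes, read 12.16 ± 0.13 in KO and 12.69 ± 0.24 in WT skin (SD, n = 4 each), and fell by 0.53 on the log2 scale (limma adjusted p = 0.0241). None of the 6 basal and 6 suprabasal keratinocyte markers looked for is named in the authors' table, so their levels could not be read.

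The promoters of the Sprr genes are shown first, since several of the genes varied together and since AP-1 and octamer sites are known from studies of human SPRR promoters. RefSeq promoter windows, 250 bases before to 50 after the annotated start, were held for 5 of the 7 genes, and not for Sprr2g and Sprr2j-ps. The annotated start of Sprr4 is the ATG of its gene model, so its window may miss the promoter and is not shown. The 250 bases upstream of the other 4 read as follows, 5′ to 3′ on the strand of the gene, with matches to AP-1 (TGANTCA), the octamer core (ATGCAAA, here on the opposite strand) and the TATA box, spelled TATAAA, in capitals.
Sprr1a (GRCm38.p6, chr3:92485882-92486131, minus strand): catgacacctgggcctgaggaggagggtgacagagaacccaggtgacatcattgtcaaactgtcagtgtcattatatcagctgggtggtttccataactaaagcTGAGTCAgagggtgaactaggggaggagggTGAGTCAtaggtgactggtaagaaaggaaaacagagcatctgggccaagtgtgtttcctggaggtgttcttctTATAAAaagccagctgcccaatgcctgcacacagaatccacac
Sprr1b (GRCm38.p6, chr3:92438780-92439029, minus strand): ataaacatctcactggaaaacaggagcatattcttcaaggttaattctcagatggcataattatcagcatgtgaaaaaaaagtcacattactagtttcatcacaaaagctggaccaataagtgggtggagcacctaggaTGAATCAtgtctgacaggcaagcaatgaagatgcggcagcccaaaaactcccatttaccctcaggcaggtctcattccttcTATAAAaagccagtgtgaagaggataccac
Sprr2e (GRCm38.p6, chr3:92351893-92352142, plus strand): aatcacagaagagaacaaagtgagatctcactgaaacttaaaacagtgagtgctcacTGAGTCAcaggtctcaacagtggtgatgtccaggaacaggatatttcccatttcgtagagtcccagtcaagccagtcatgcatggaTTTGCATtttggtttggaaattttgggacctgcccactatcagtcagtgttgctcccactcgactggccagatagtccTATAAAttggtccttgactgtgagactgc
Sprr2i (GRCm38.p6, chr3:92407741-92407990, plus strand): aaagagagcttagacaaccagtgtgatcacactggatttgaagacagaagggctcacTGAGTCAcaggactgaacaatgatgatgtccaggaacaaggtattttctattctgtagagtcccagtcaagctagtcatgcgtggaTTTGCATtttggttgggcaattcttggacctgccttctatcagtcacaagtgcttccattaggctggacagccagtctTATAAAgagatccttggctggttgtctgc

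All 4 of these windows held an AP-1 match and a TATAAA, against 7.81% and 13.6% of the 32851 mouse promoter windows of the table. The Sprr4 window held neither, so each was found in 4 of the 5 windows held for the named genes. Since that window is placed by the ATG, nothing can be said of the Sprr4 promoter from it. Sprr1a held 2 AP-1 matches, at −146 and −116 from the annotated start, and Sprr1b held 1 at −111. In Sprr2e and Sprr2i the AP-1 match, the octamer core and TATAAA stood at the same places, −193, −107 and −29. The octamer core, present in 4.63% of all windows, was found in these Sprr2 windows and in neither Sprr1 window. The Sprr2e and Sprr2i sequences were 77.2% identical over the alignment, whereas Sprr1a and Sprr1b were 55.9% identical. An Sprr1 with an Sprr2 sequence of this set gave 47.7% to 51.4%.

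The same letters were not particular to the Sprr genes named in the authors' table. Of 9 Sprr windows whose genes had no value here, 5 held both AP-1 and the octamer core, namely Sprr2b, Sprr2d, Sprr2f, Sprr2h and Sprr2k. The windows of Sprr2a1, Sprr2a2 and Sprr2a3, each taken at its own annotated start, held neither, nor TATAAA, and Sprr3 held TATAAA alone of the 3. Other motifs searched on both strands were less even among the 5 windows of named genes. CACCC was found in Sprr1a and Sprr1b (57.5% of all windows), the antioxidant element TGANNNNGC in Sprr1a, Sprr1b and Sprr2e (41.3%), where it overlaps an AP-1 match in Sprr1a, the STAT motif TTCNNNGAA in Sprr2i (8.30%) and the ETS core AGGAAG in Sprr4 (35.4%). A match is a run of letters and was not tested as a binding site.

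**Figure D1:**
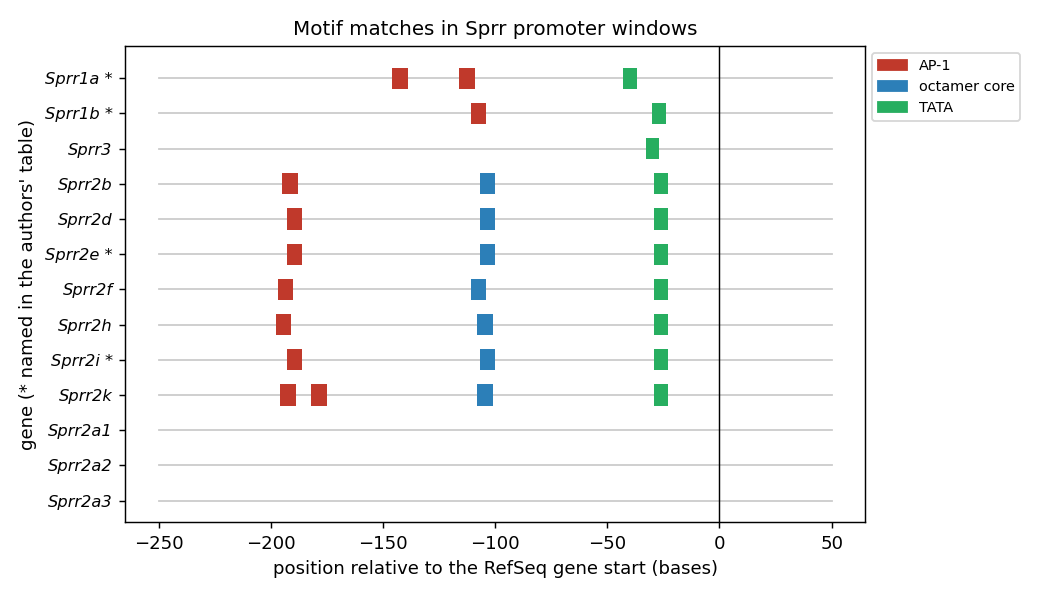
Matches to AP-1, the octamer core and TATA in the RefSeq promoter windows of 13 Sprr genes, by distance in bases from the annotated gene start. The Sprr4 window, placed by the ATG of its gene model, held none of these matches and is left out. Asterisks mark genes named in the authors' table. The 7 Sprr2 windows other than Sprr2a1, Sprr2a2 and Sprr2a3 share the order AP-1, octamer core, TATA.

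All 7 Sprr genes had a higher mean in KO than in WT skin, by 0.70 to 2.89 on the log2 scale with a median of 2.06. The median change was 0.62 over all named genes. These are the values that chose the genes, and 11.8% of all probe sets met the authors' criteria with a higher KO mean. In 3 of the 7 genes the 4 KO values lay above the 4 WT values (Sprr1b, Sprr2g and Sprr4), and in 4 they overlapped; over all probe sets, 17.6% had every KO value above every WT value, and 25.0% had groups that did not overlap in either direction. Among the 3760 named genes with a higher KO mean the share was 87.3%, so that overlap was more frequent among the Sprr genes, without a test. The Sprr2 genes differed most between genotypes and also varied most among embryos of one genotype. In whole skin, more cells that express a gene and more RNA per cell cannot be told apart.

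Sprr1a, which encodes an envelope precursor also known as a gene switched on in injured nerve cells, read 13.16, 13.20, 12.63 and 13.24 in KO replicates 1 to 4 and 11.69, 11.72, 11.03 and 12.65 in WT replicates 1 to 4. The groups overlapped narrowly, since WT replicate 4 read 0.02 above KO replicate 3. The mean was 13.06 ± 0.29 in KO and 11.77 ± 0.67 in WT skin (SD, n = 4 each), a difference of 1.28 ± 0.29 (SE) or 2.44-fold.

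Sprr1b, its closest relative and likewise an envelope precursor, read 12.12, 12.06, 11.48 and 12.40 in KO replicates 1 to 4 and 10.17, 10.08, 9.98 and 11.38 in WT replicates 1 to 4. The groups did not overlap, but WT replicate 4 stood far above the other WT arrays and within 0.10 of KO replicate 3. The mean was 12.01 ± 0.39 in KO and 10.40 ± 0.66 in WT skin (SD, n = 4 each), a difference of 1.61 ± 0.30 (SE) or 3.06-fold.

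Sprr2e, a protein-coding member of the Sprr2 group of close copies, read 7.79, 8.63, 6.50 and 8.95 in KO replicates 1 to 4 and 5.23, 5.79, 5.19 and 7.43 in WT replicates 1 to 4. WT replicate 4 read 0.93 above KO replicate 3, the widest overlap of the 7 genes. The mean was 7.97 ± 1.09 in KO and 5.91 ± 1.05 in WT skin (SD, n = 4 each), a difference of 2.06 ± 0.58 (SE) or 4.16-fold.

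Sprr2i, the other Sprr2 gene here that RefSeq lists as protein-coding, read 5.49, 6.16, 4.28 and 6.95 in KO replicates 1 to 4 and 2.22, 3.91, 2.33 and 4.68 in WT replicates 1 to 4. WT replicate 4 again read above KO replicate 3, and WT replicates 1 and 3 were lowest. The mean was 5.72 ± 1.13 in KO and 3.29 ± 1.21 in WT skin (SD, n = 4 each), a difference of 2.44 ± 0.63 (SE) or 5.41-fold.

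Sprr2g, listed in RefSeq as a transcribed pseudogene, read 7.91, 8.81, 6.99 and 8.75 in KO replicates 1 to 4 and 4.06, 5.58, 4.31 and 6.93 in WT replicates 1 to 4. The groups stood clear of each other by 0.06, the distance from KO replicate 3 to WT replicate 4. The mean was 8.11 ± 0.86 in KO and 5.22 ± 1.32 in WT skin (SD, n = 4 each), a difference of 2.89 ± 0.60 (SE) or 7.43-fold, the largest of the 7.

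Sprr2j-ps, the other transcribed pseudogene, read 10.73, 11.18, 9.39 and 11.20 in KO replicates 1 to 4 and 7.04, 8.22, 7.17 and 9.75 in WT replicates 1 to 4. WT replicate 4 lay within the KO range, and the other WT arrays lay below it. The mean was 10.63 ± 0.86 in KO and 8.04 ± 1.25 in WT skin (SD, n = 4 each), a difference of 2.58 ± 0.58 (SE) or 5.99-fold. The Sprr2 genes are near-identical copies whose transcripts may bind each other's probes, which was not measured. The signal at Sprr2g and Sprr2j-ps therefore may include RNA of coding Sprr2 genes, although the authors' deposited table gives all 7 probe sets cross-hybridisation type 1.

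Sprr4, known in human skin as a gene induced by ultraviolet light, differed least and varied differently. It read 6.90, 7.71, 6.75 and 7.27 in KO replicates 1 to 4 and 6.47, 6.67, 6.22 and 6.46 in WT replicates 1 to 4. The groups did not overlap, by 0.09, and WT replicate 4 was not raised. The mean was 7.16 ± 0.42 in KO and 6.46 ± 0.18 in WT skin (SD, n = 4 each), a difference of 0.70 ± 0.20 (SE) or 1.63-fold. With each array centred on its median the difference was 0.59, and Sprr4 then no longer met the authors' criteria.

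**Figure D2:**
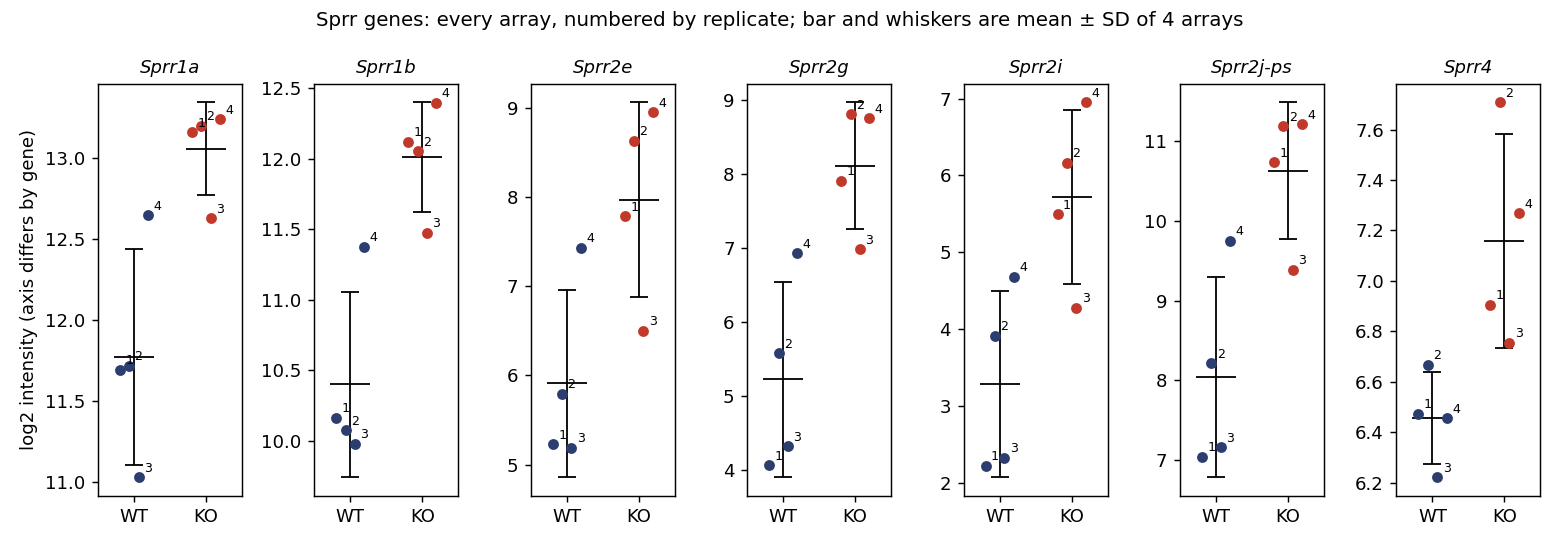
Log2 intensity of the 7 Sprr genes on every array, WT in blue and KO in red, with replicate numbers beside the points and the mean ± SD of 4 arrays in black; each gene has its own axis. KO replicate 3 is the lowest KO array in all 7 genes, and WT replicate 4 the highest WT array in all but Sprr4.

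The Sprr genes shared their extreme arrays rather than a full order. KO replicate 3 was the lowest KO array in 7 of 7 genes, while it was the lowest in 24.4% of all probe sets and in 39.8% of the 3760 named genes that were higher in KO skin. WT replicate 4 was the highest WT array in 6 of 7, against 25.2% and 29.0%. In 4 genes (Sprr1a, Sprr2e, Sprr2i and Sprr2j-ps) the KO arrays stood in the same full order, with replicate 3 lowest, then 1, 2 and 4. The WT arrays fell into 4 orders, with replicates 1, 3, 2 and 4 from low to high in Sprr2g, Sprr2i and Sprr2j-ps, replicates 3, 1, 2 and 4 in Sprr1a and Sprr2e, and an order of their own in Sprr1b and in Sprr4. Adjacent genes of 1 cluster with similar sequences are not independent observations, so these counts are descriptions.

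The size of these deviations was set against the other 3 arrays of the same genotype. KO replicate 3 lay furthest below them in the Sprr2 genes, with values of −1.95 for Sprr2e, −1.92 for Sprr2i, −1.65 for Sprr2j-ps and −1.50 for Sprr2g. Its deviation was smaller in Sprr1b (−0.72), Sprr1a (−0.57) and Sprr4 (−0.54), and the median over all probe sets was 0.01. WT replicate 4 lay above the other WT arrays by 2.28 in Sprr2g, 2.27 in Sprr2j-ps, 2.03 in Sprr2e and 1.86 in Sprr2i. The same array was raised by 1.30 in Sprr1b and 1.17 in Sprr1a but by 0.00 in Sprr4, and by −0.02 in the median probe set. Thus the distance of this control embryo from the others in the Sprr2 genes was of the order of the genotype difference itself.

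Without both KO replicate 3 and WT replicate 4, which were chosen after these values were seen, the differences had to be larger wherever these arrays were the lowest KO and the highest WT array. They were 3.84 in Sprr2g, 3.56 in Sprr2j-ps, 3.38 in Sprr2i and 3.05 in Sprr2e. They were 2.12 in Sprr1b, 1.72 in Sprr1a and 0.84 in Sprr4. Leaving out WT replicate 4 alone gave 3.46 in Sprr2g and 0.70 in Sprr4, and leaving out KO replicate 3 and WT replicate 1, the arrays that stood apart over all probe sets, gave 2.88 and 0.84.

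**Figure D3:**
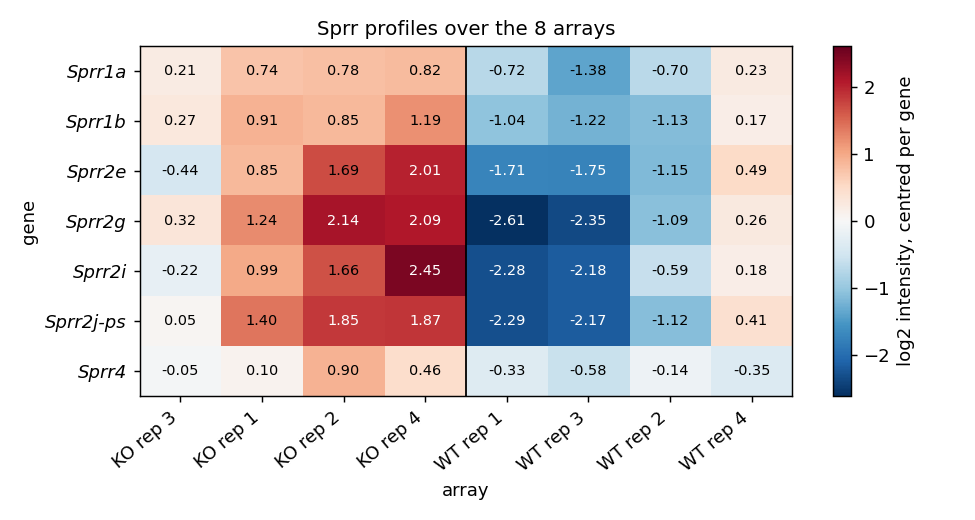
Profile of each Sprr gene over the 8 arrays, as log2 intensity minus the gene's own mean, with KO arrays on the left and WT arrays on the right. Colour and printed value give that difference. KO replicate 3 and WT replicate 4 lie between −0.44 and 0.49 in the Sprr2 genes, between the positive other KO arrays and the negative other WT arrays.

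Profiles were compared by the root-mean-square distance between 2 genes over the 8 arrays, each centred on its own mean. Sprr2g and Sprr2j-ps were closest (0.22 log2 units), followed by Sprr1a and Sprr1b (0.25). Among the other Sprr2 pairs the distance was 0.34 to 0.52, and Sprr4 lay 0.51 from Sprr1a and 1.38 from Sprr2g. This measure counts the size of the swings as well as their shape, so genes with small changes lie close to many others.

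Among the named genes outside the family, those with the most similar profile differed between the Sprr groups. All named genes had already passed the authors' criteria, so their adjusted p-values had to lie under 0.05. The distance also includes the KO-WT step, so a neighbour with a change of similar size follows from the choice. Shared regulation was not tested. For Sprr2g and for Sprr2j-ps the nearest gene was Ereg, which encodes an epidermal growth factor receptor ligand (distances 0.35 and 0.38, change 3.005 ± 0.60, SE; limma adjusted p = 0.00755). For Sprr2i it was Gm5416 (0.40), a gene of the stefin group of protease inhibitors, and for Sprr2e it was Fosl1 (0.46), which encodes a subunit of AP-1 (2.01 ± 0.45; limma adjusted p = 0.0125). Gm5416, Lce3d, the prostaglandin synthase Ptgs2, the orphan receptor Gprc5a, the stress keratin Krt6a and Gm7897 filled the remaining places for the Sprr2 genes. The nearest to Sprr1a were Mir22 (0.17), Pde12 (0.18) and the serpin Serpinb2 (0.22), and to Sprr1b the phosphatase Dusp6 (0.20), which acts on ERK kinases, Pde12 (0.22) and Kcnrg (0.24). Sprr4 was nearest to Ifrd1 (0.10), AI314278 (0.11) and Gm22025 (0.13). Ereg, Fosl1 and Pde12 missed the threshold without variance moderation, Gm5416 in 2 alternatives, Ifrd1 in 6 and Krt6a in 11.

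The complex was laid out in RefSeq order from protein-coding genes and transcribed pseudogenes only. Among these, 16 of the 17 Sprr genes form an unbroken run within the epidermal differentiation complex, between Lelp1 and Ivl. The other, Sprr2c-ps, is listed as a pseudogene without the mark of transcription, so it was left out and its place was not examined. Of 73 genes in this order, from S100a1 to S100a10, 45 were named in the authors' table, 23 higher and 22 lower in KO skin. Next to the run, on the side of Sprr2a1, Lelp1 (1.13 ± 0.14, SE) and Prr9 (1.44), chosen for their place, were higher. On the other side Ivl and Smcp had no value, and the block that follows, Lce6a and the Lce1 genes, was lower. The nearest of these with a value were Lce6a (−2.06 ± 0.20) and Lce1a1 (−2.16 ± 0.31). Higher values came back with the Lce3 genes, of which Lce3d (2.57 ± 0.38) was highest and Lce3f (2.05 ± 0.62) and Lce3b missed the threshold after centring. Only named genes, those past the authors' criteria, can be placed on this map.

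**Figure D4:**
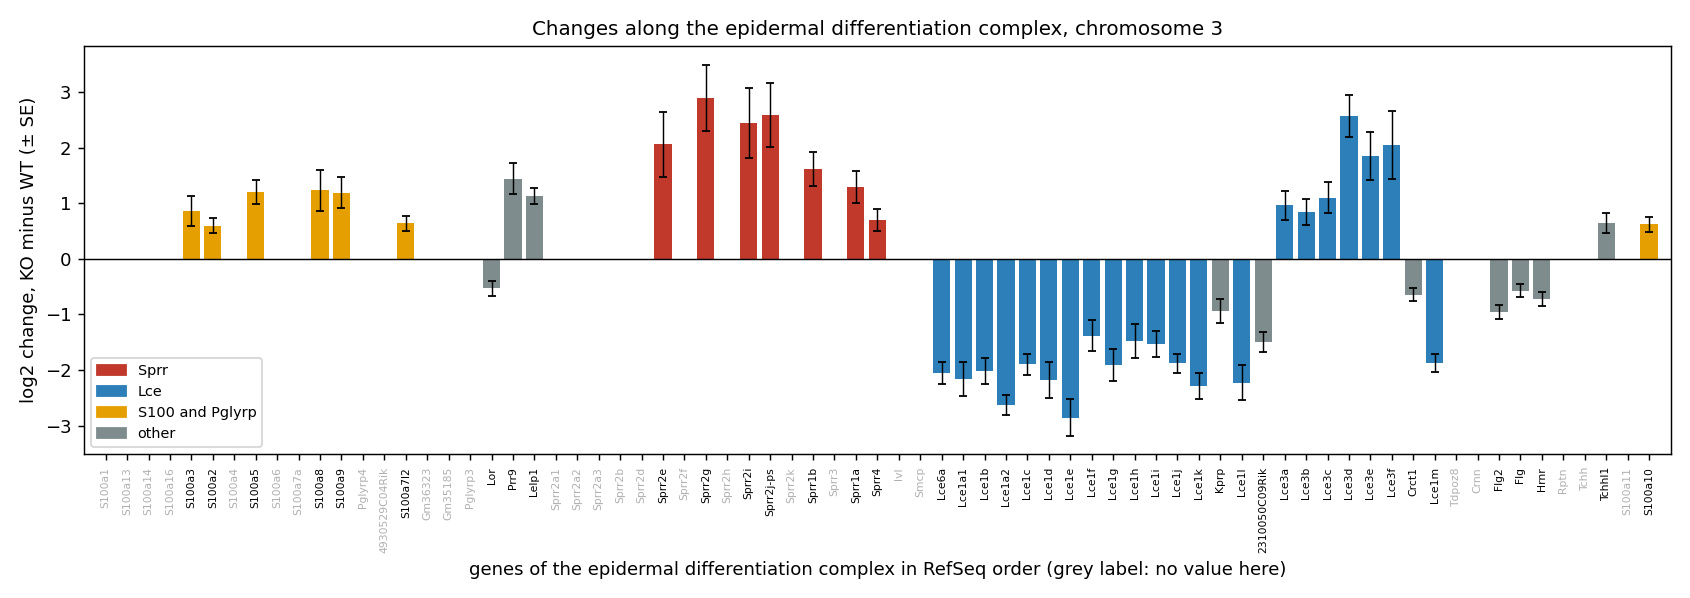
Log2 change, KO minus WT (bars, ± SE from limma), along the epidermal differentiation complex on chromosome 3, from S100a1 to S100a10. Protein-coding genes and transcribed pseudogenes are shown in RefSeq order, and those with grey labels have no value here. The 7 Sprr genes with a value are higher in KO skin, and the neighbouring Lce6a and Lce1 genes are lower.

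Most of the other envelope precursors with a value were lower, not higher, in KO skin. Of 26 other envelope precursors outside the Lce family, 9 were named, 3 higher and 6 lower. Being named already means having passed the threshold (limma). Over the whole array 16.2% of probe sets met the authors' criteria in either direction, and 11.8% did so with a higher KO mean. The median change of the 9 named precursors was −0.57. The genes that fell were Flg2 (−0.95 ± 0.12, SE), Kprp (−0.93 ± 0.21), Hrnr (−0.72 ± 0.12), Krt78, Flg and Lor, the gene of the envelope's main protein (−0.53 ± 0.14). Those that rose were Lelp1, Tchhl1 and Anxa1, the last of which missed the threshold after centring, as did Tchhl1. Among the Lce genes all 21 were named, 15 lower and 6 higher, and the median change was −1.88.

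Of the 10 transglutaminases and proteases that act on them, 2 were named, where 16.2% of all probe sets met the authors' criteria. They were Tgm6 (0.60 ± 0.13, SE; limma adjusted p = 0.00999) and Tgm2 (0.59 ± 0.17; limma adjusted p = 0.0311), of which Tgm2 missed the threshold in 12 alternatives, among them all 3 other scalings. The genes of the epidermal enzymes Tgm1, Tgm3 and Tgm5 were not named.

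Of 31 transcription factors known at Sprr or other envelope promoters, 9 were named and all 9 rose. Over the whole array 11.8% of probe sets met the authors' criteria with a higher KO mean, and 3760 of the 5080 named genes were higher. The largest rises were those of Fosl1, the ETS factor gene Ehf (1.36 ± 0.31, SE; limma adjusted p = 0.0132), the Krüppel-like factor gene Klf6 (1.30 ± 0.21) and Ovol1 (0.94 ± 0.22). After centring 7 of the 9 passed, and without variance moderation 3 did. The extreme arrays were mostly those of the Sprr genes, with KO replicate 3 lowest in 8 of 9 and WT replicate 4 highest in 7 of 9. Among all named genes that rose, these shares were 39.8% and 29.0%. Whether these factors act on the Sprr genes was not tested. Fosl1 itself read 9.62 in KO replicate 3 and 9.97 in WT replicate 4, so that the same embryos overlapped. Both alarm genes named of 6, Krt6a (1.69 ± 0.53) and the connexin gene Gjb2 (0.95 ± 0.18), were also highest among WT arrays in replicate 4. KO replicate 3 was the lowest KO array in Krt6a, but in Gjb2 replicate 1 was (10.36, replicate 3 at 10.38).

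Markers of other cell types were partly higher in KO skin as well, where again 11.8% of all probe sets, and 3760 of 5080 named genes, are the background. All 3 named genes of the 11 on the neutrophil list rose (S100a8, S100a9 and Trem1). Their summed linear level was 95.2 to 234.6 in KO and 48.2 to 72.0 in WT skin. Which cells of the whole skin held this RNA was not measured, so a rise in neutrophils cannot be read from it. KO replicate 3 was lowest in 0 of these 3, and WT replicate 4 highest in 0 of 3. The rest of the 11 neutrophil markers were not named. S100a8 missed the threshold in 11 alternatives and S100a9 in 1, and both genes also stand in the S100 list below. In KO replicate 4, which gave the highest sum, S100a8 read 6.54 (other KO arrays 4.897 to 5.08). Of 9 macrophage and dendritic cell markers 6 were named and rose, and of 7 T cell markers 4. Their summed levels in KO and WT skin were 954 to 1219 against 523 to 692, and 126.7 to 150.0 against 78.5 to 84.7. Such sums weigh the brightest probe sets most and do not measure amounts of cells. Among the 6 macrophage and dendritic cell markers the KO means ran from 4.67 (Cd207) to 8.66 (Cd68). All 4 named hair follicle genes of 12 rose, with Krt72 at 1.59 ± 0.24 (SE), and KO replicate 3 was lowest in 0 of 4. The other 3 were less firm, since Krt25 missed the threshold in 6 alternatives, Krt73 in 9 and Krt35 in 11. Of the 4, 2 passed under quantile or cyclic loess scaling or without KO replicate 3, and 1 without variance moderation or without KO replicate 2, KO replicate 4 or WT replicate 3. The lists of muscle, endothelium, adipocyte, mast cell, nerve and erythroid markers had 1 named gene each and the melanocyte list 2, all higher, while 0 of 6 fibroblast markers were named. After centring 2 of the neutrophil, 5 of the macrophage and 4 of the T cell genes passed, and the endothelial and adipocyte genes did not. The part of these cells in the Sprr values was not tested. Of the 15 S100 and Pglyrp genes on the list for the complex 5 were named and rose, of which 3 passed after centring. The list did not hold S100a2 (0.60 ± 0.13, SE) and S100a7l2 (0.64 ± 0.13), which were higher in KO skin. Both are in the authors' deposited table, S100a7l2 under the symbol 9130204L05Rik.

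**Figure D5:**
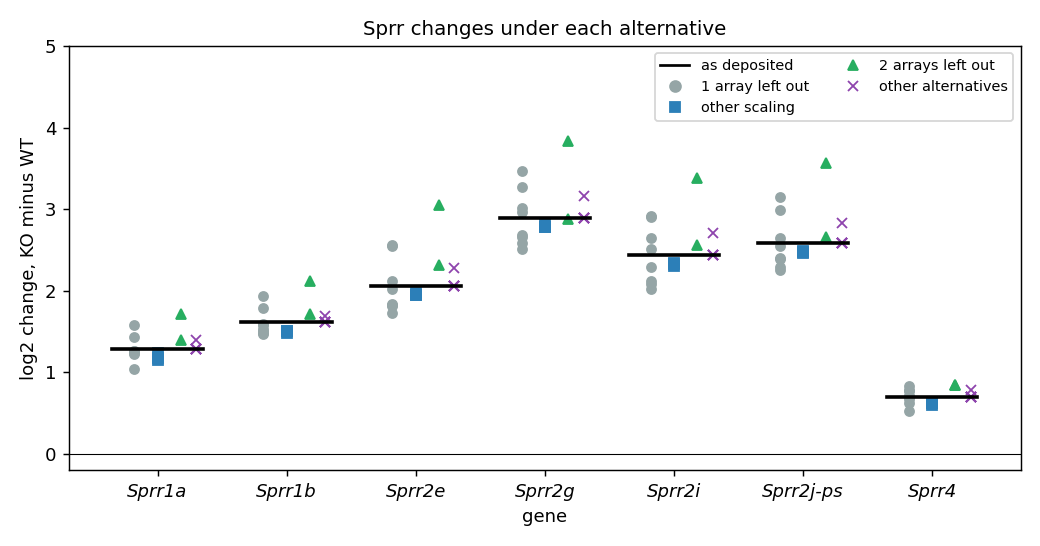
Log2 change, KO minus WT, of each Sprr gene as deposited (black line) and under every alternative (points), grouped by kind. All values lie above 0, from 0.52 in Sprr4 without KO replicate 2 to 3.84 in Sprr2g without KO replicate 3 and WT replicate 4.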

How the data were processed

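Total RNA of 8 whole skins (9 µg each, RNeasy columns) was labelled and hybridised, per the labels' protocols. The deposited log2 intensities, 1 per probe set and array, were used without further scaling; the submitters' processing notes name RMA, and the sources used here give no version. The authors' table holds a mean log2 intensity per genotype, per the file headers, and also the linear fold change (ratio), its log2 value and p-values. Its probe counts and annotation class scores are as deposited. The number of arrays limits the precision.

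The genotypes were compared in R 4.3.3 by limma 3.58.1 (lmFit, then eBayes, with genotype as the sole term). All 33793 probe sets entered the Benjamini-Hochberg adjustment, and calls were made at 0.05. The script was tested on simulated data. The Sprr genes, the gene lists and the alternatives were chosen with earlier results of these data known. Genes named were the Sprr genes, Cdsn, up to 4 genes with the largest changes per list and the 3 nearest profiles per Sprr gene; others, such as those named for their place in the complex, for overlap or for a lost call, were chosen after their values were seen. Only probe sets named in the authors' table were used, and 299 of its probe sets carry no name. Where the RefSeq symbol differed, it was matched by accession. Promoters were RefSeq's (GRCm38.p6) and were aligned globally with Biopython 1.88. Alternatives were 3 other scalings, a filter on dim probe sets, no moderation, a variance trend, array weights, a replicate block and left-out arrays.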

Additional observations from a re-analysis of the deposited data

Results flagged for a closer look

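Single values far from the other 3 of their group, by Dixon's 95% criterion, were looked for among the Sprr genes and the other genes set by the naming rule. Of 124 groups of 4 values 10 held one, where chance flags about 1 in 20, or 6.2. Among the 14 Sprr groups there were 2: Sprr1a in KO replicate 3 was low at 12.63 (others 13.16 to 13.24), and Sprr1b in WT replicate 4 was high at 11.38 (others 9.98 to 10.17). The same arrays held 4 more, of which Ptgs2, Ereg and Gm7897 were named because their profiles resemble those of Sprr genes, so that their agreement in these arrays follows from that choice and the chance count does not apply to them. Ptgs2 in KO replicate 3 was low at 9.01 (others 10.40 to 10.68), and in WT replicate 4 Ereg was high at 8.75 (others 5.91 to 6.27), Gm7897 high at 4.11 (others 1.73 to 2.11) and Slc45a2 low at 5.54 (others 6.00 to 6.09). KO replicate 4 held a high S100a8 at 6.54 (others 4.897 to 5.08) and a low Hbb-bt at 4.21 (others 4.64 to 4.68). KO replicate 1 held a high Tgm2 at 8.11 (others 7.90 to 7.93) and a low Krt73 at 8.24 (others 8.93 to 8.99).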

How the results depend on the processing

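The 7 Sprr differences stayed above 0 in every alternative run and moved by less than the pooled SD of both groups, though in Sprr1a, Sprr1b, Sprr2g, Sprr2j-ps and Sprr4 by more than the smaller group SD. With 1 array left out they ranged from 1.04 to 1.58 (Sprr1a), 1.47 to 1.94 (Sprr1b), 1.73 to 2.56 (Sprr2e), 2.51 to 3.46 (Sprr2g), 2.03 to 2.92 (Sprr2i), 2.25 to 3.15 (Sprr2j-ps) and 0.52 to 0.84 (Sprr4). Membership was less firm. All 7 met the authors' criteria as deposited, 6 after median centring, quantile normalization or cyclic loess (without Sprr4), and 1, Sprr1b, without variance moderation. Without KO replicate 2 or 4, or WT replicate 1 or 3, 4 genes met them (without Sprr2e, Sprr2i and Sprr4), without KO replicate 1 or WT replicate 2 6 did (without Sprr2e), and without WT replicate 4 6 did (without Sprr4). With dim probe sets left out Sprr2i had no value, and 3298 probe sets changed in place of 7194, since fewer were tested. No Sprr gene had several probe sets, so averaging them could not be run. Of 55 other genes set by the naming rule, 34 kept direction and threshold in every alternative with a value, and none reversed. The numbers were not taken to pair the embryos, since not every same-numbered pair correlated over 0.1 across probe sets: pairs 1 and 4 gave −0.03 and 0.01, pairs 2 and 3 gave 0.14 and 0.23, and 4 of 8 arrays correlated best with their own number. In 3 Sprr genes (Sprr1a, Sprr1b and Sprr2e) the KO and WT numbers stood in the same order. With the replicate block 6250 probe sets changed, and all 7 Sprr genes met the criteria.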
